A study of Mus musculus with 48 samples.

Results

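ERVL elements and the related MaLR elements of the mouse genome were followed through reprogramming of fibroblasts to induced pluripotent stem cells (iPSCs) with the MKOS and OKMS cassettes. They were all repeat types of the count table whose name starts with MT2, MERVL, MTA to MTE, ORR1, MLT1, or MST, and 114 of the 1554 repeat types in the table met this rule. Of these, 8 were MT2 and MERVL types, 19 were MT types, 29 were ORR1 types, and 58 were MLT1 types, while no type in the table had an MST name. The name of a type with the ending -int denotes the internal part of the element, and the other names denote its long terminal repeats (LTRs), so that the set held 58 LTR types and 56 internal types.

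ERVL elements are class III endogenous retroviruses, and MERVL-int is the internal part of a young mouse family, whose LTR is MT2_Mm. Its copies are transcribed in the embryo at the 2-cell stage and in a rare and transient state of embryonic stem cell (ESC) cultures called 2-cell-like cells, in which MT2_Mm LTRs serve as promoters of nearby genes and the Zscan4 genes are expressed. MT2B and MT2C LTRs belong to older ERVL families. MaLRs are nonautonomous LTR elements that depend on ERVL for their spread, among which MTA is transcribed in oocytes, ORR1A types are the younger ORR1 types, and MLT1 types are the oldest. In differentiated and pluripotent cells such elements are kept silent by histone modifiers such as KDM1A, SETDB1 with TRIM28, and EHMT2, by the histone chaperone CAF-1, and by DNA methylation.

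The data were 48 libraries from 20 groups, made with STRT, a tagged reverse transcription method that reads the 5′ ends of transcripts. TNG cells carry a GFP reporter in 1 copy of Nanog, and MKOS and OKMS denote a doxycycline-inducible cassette of the factors Myc, Klf4, Oct4, and Sox2, in the order of their initials, targeted with a CAG-driven rtTA and an mOrange reporter into an intron of Sp3 in TNG ESCs. The cassettes also differ in Klf4. According to the paper, OKMS has a short form that lacks N-terminal amino acids and yields less KLF4 protein, and MKOS has the long form. The part of this difference in the results was not tested. MKOS and OKMS MEFs were fibroblasts of chimeric embryos made with these ESCs and therefore also hold host cells in a share not given, and in the reprogramming cultures they were diluted with WT MEFs and kept in serum and LIF with doxycycline and vitamin C. The sorted populations, 3 libraries each, were MKOS and OKMS cells in the E-CAD+ 2NG-, 3NG-, and 3NG+ gates and OKMS cells in the E-CAD- 2NG- and 3NG- gates. In these names 2 stands for CD44-low ICAM1-low, 3 for CD44-low ICAM1-high, and NG- or NG+ for Nanog-GFP, and all 3NG+ cells were E-CAD+. All other groups, with 2 libraries each, comprised MEFs (MKOS, OKMS, and WT), MKOS and OKMS iPSCs cultured either without doxycycline or in 2i medium (inhibitors of MEK and GSK3), the iPSC line D6 with its MKOS transposon integrated in Sp3, TNG MKOS and TNG OKMS ESCs, the TNG ESCs they were made from, and E14 ESCs as WT. Each ESC group and D6 was a line, while it is not said whether the libraries of an MKOS or OKMS iPSC group came from a single line. The libraries of a group are not said to come from separate cultures, so the tests measure the spread between libraries only. Sorting was on day 10 of reprogramming, whereas the labels allow 10 or 15 days.

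The labels of MEFs, iPSCs, and ESCs were checked against marker genes. The summed level of 10 fibroblast markers, most of it from collagen genes, was 4849, 5812, and 4633 reads per 1000000 reads on transcripts (CPM) in WT, MKOS, and OKMS MEFs and at most 304 in the iPSC and ESC groups. Nanog was at 0 in all 6 MEF libraries and had a mean level of 61.9 to 301 CPM in the iPSC and ESC groups. Of the genes behind the gates, Cdh1, which encodes E-CAD, had means of 75.5 to 165 CPM in the E-CAD+ and 3NG+ populations and 25.4 and 11.5 in the E-CAD- 2NG- and 3NG- populations. Icam1 was at 0.0470 to 2.77 CPM in the 2NG- and 8.40 to 16.7 in the 3NG- and 3NG+ populations. Cd44 did not follow its gate in OKMS cells, with 159, 145, and 96.1 CPM in E-CAD- 3NG- and 135, 125, and 9.18 in E-CAD+ 3NG- libraries, although both gates are CD44-low, compared with 119 and 65.4 in WT MEFs and 252 and 362 in OKMS MEFs. In the OKMS 2NG- libraries, which are CD44-low as well, it was at 59.8, 100.2, and 46.1 CPM in E-CAD- and 36.8, 75.8, and 12.5 in E-CAD+ cells. The gates were set on surface protein, and the part of these Cd44 levels in the results on 2NG- and 3NG- cells was not tested. The cells were measured in bulk, so that fewer cells of a type and less RNA per cell cannot be told apart.

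Per library, between 1429717 and 14174725 reads were counted on transcripts and between 7476 and 75376 reads on the 114 ERVL and MaLR types. These types held 1.97% of all reads on repeats while covering 11.5% of the annotated repeat length, 139 of 1206 Mb. All levels are on this CPM scale, and 3 reads corresponded to 0.212 to 2.10 CPM. A level sums all copies of a type in sense and antisense, so it does not tell which copies were transcribed. ORR1 types had 60.6% of the reads of the set, MT types 23.9%, MT2 and MERVL types 11.6%, and MLT1 types 3.88%. Per kb of annotated sequence, the MT2 LTRs had 19.8 reads against 2.80 for the MERVL internal parts, ORR1 LTRs had 22.6 against 7.66, and MLT1 LTRs had 3.91 against 2.67. MT types were the other way around, with 6.18 reads per kb on LTRs and 13.7 on internal parts, and MTA_Mm-int alone had 99896 reads. 3 types, all of them internal parts of MLT1, had no read, and 11 MLT1 internal types had fewer than 10 reads.

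Of the 114 types, 95 passed the filter on low counts, namely all 8 MT2 and MERVL types, all 19 MT types, 28 of 29 ORR1 types, and 40 of 58 MLT1 types. Each comparison was tested with edgeR over all 16930 transcripts and repeat types that passed, and a type was called at a Benjamini-Hochberg FDR of at most 0.05. Fold changes are given on the log2 scale as value ± SE. In 16 comparisons between groups, 35 types were called at least once, 36.8% of the 95, against 59.6% of all features and 31.0% of the 1019 other repeat types tested. They were 7 of the 8 MT2 and MERVL types, 5 of the MT types, 19 of the ORR1 types, and 4 of the MLT1 types. By part of the element, 23 were among the 58 LTR types tested and 12 among the 37 internal types tested. MT2C_Mm was called most often, in 11 comparisons, followed by ORR1A2 in 9 and by MT2B1, ORR1A0, and ORR1A1 in 8 each.

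**Figure D1:**
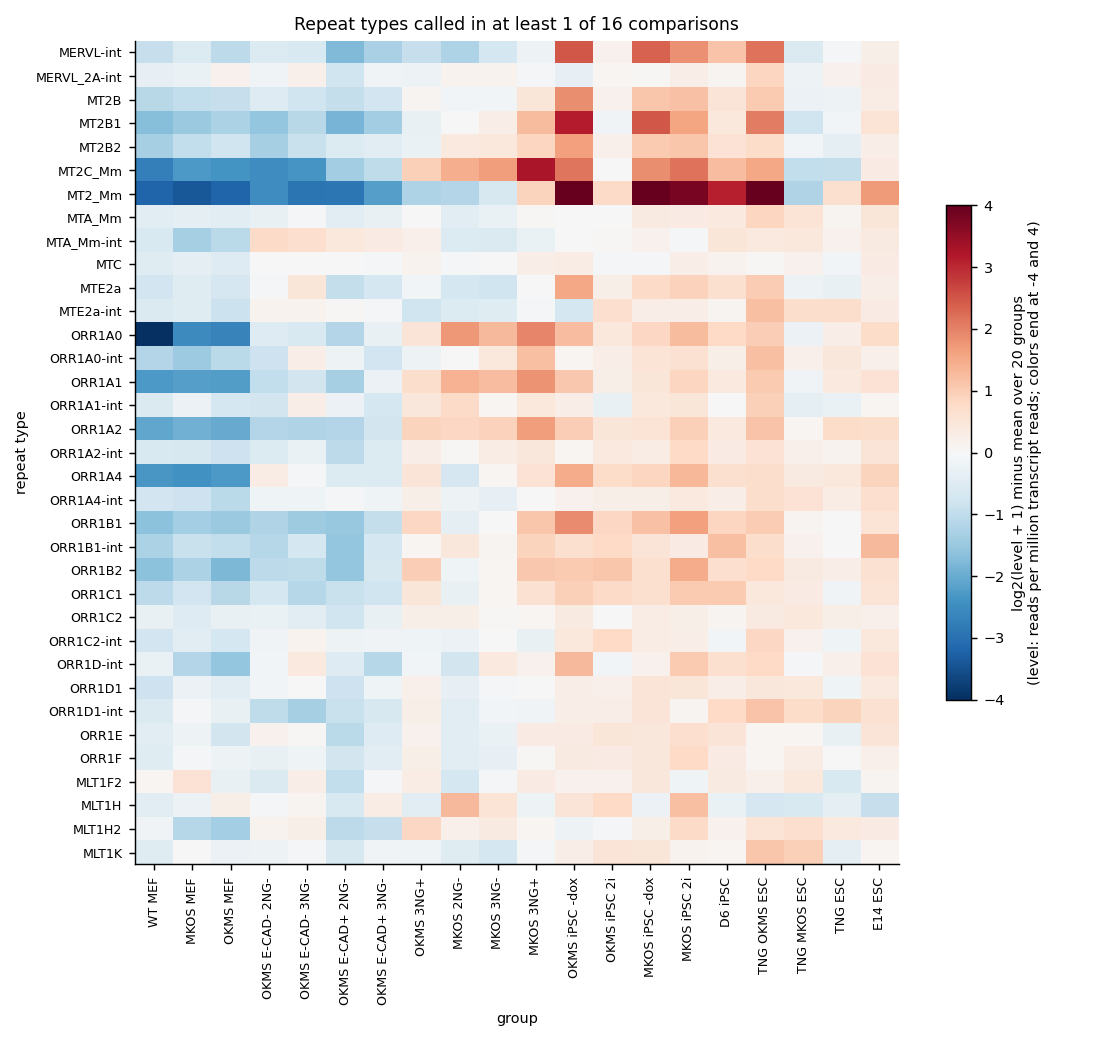
Level of the 35 repeat types that were called in at least 1 comparison (rows) in the 20 groups (columns), as log2(mean CPM + 1) minus the row's mean over the groups, red for higher and blue for lower levels. MT2_Mm spans the widest range, and MT2_Mm is highest in iPSCs without doxycycline, and MT2C_Mm, ORR1A0, ORR1A1, and ORR1A2 are highest in MKOS 3NG+ cells.

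The summed level of all 114 types was 3143 ± 17.0 CPM (SD, n = 2) in WT MEFs, 3455 ± 681 in MKOS MEFs, and 2977 ± 79.4 in OKMS MEFs. In E-CAD+ 2NG-, 3NG-, and 3NG+ cells it was 3602 ± 157, 4048 ± 122, and 5389 ± 139.6 with OKMS (SD, n = 3) and 4538 ± 457, 4839 ± 363, and 6539 ± 568 with MKOS, higher with MKOS in each gate. In iPSCs without doxycycline it was 8934 ± 4065 with OKMS and 7075 ± 664 with MKOS (SD, n = 2). Most of the change came from the ORR1 types and from the MT2 and MERVL types. The ORR1 types, with ORR1D2 left out because it alone had 26% of the reads of the set, summed to 764 ± 152 in MKOS MEFs, 1778 ± 128 in MKOS 2NG- cells, and 2909 ± 321 in MKOS 3NG+ cells. The MT2 and MERVL types summed to 159 ± 60.1, 388 ± 90.0, and 898 ± 114 CPM in the same groups and to 1857 ± 800.3 in MKOS iPSCs without doxycycline. The MT types were between 801 CPM in OKMS MEFs and 1561 in MKOS iPSCs in 2i, and the MLT1 types were between 116 in OKMS E-CAD+ 2NG- cells and 259 in MKOS iPSCs in 2i.

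MEFs were first compared with the ESCs they were derived from. Relative to MKOS and OKMS MEFs, 29 of the 95 types were higher in TNG MKOS and TNG OKMS ESCs and none was lower, which is 30.5% of the types, where 48.3% of all features were called and 24.5% were higher. The median log2 fold change of the 95 types was 0.57, against 0 for all features and 0.44 for the 1019 other repeat types tested, of which 24.4% were called. The summed level of MT2 and MERVL types was 159 ± 60.1 CPM (SD, n = 2) in MKOS MEFs and 168 ± 26.6 in OKMS MEFs, compared with 258 ± 62.7 in TNG MKOS ESCs and 1546 ± 81.4 in TNG OKMS ESCs. The ORR1 types summed to 2177 ± 270.2 and 1852 ± 201 CPM in MKOS and OKMS MEFs and to 2791 ± 164 and 3558 ± 171 in TNG MKOS and TNG OKMS ESCs.

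ORR1A4, a member of the younger ORR1 types, was at 25.1 and 30.8 CPM in the libraries of MKOS MEFs and at 31.9 and 28.7 in those of OKMS MEFs, and at 225 and 170.1 in TNG MKOS ESCs and 214 and 286 in TNG OKMS ESCs. Every ESC library was therefore far above every MEF library (log2 fold change 2.90 ± 0.24, FDR = 2.21e-13). ORR1A2 (2.59 ± 0.22), ORR1A0 (3.14 ± 0.31), ORR1A1 (2.74 ± 0.28), ORR1B2 (2.14 ± 0.28), and ORR1B1 (1.97 ± 0.24) rose as well. The MT LTR with the most reads, MTC, differed little (log2 fold change 0.48 ± 0.15, FDR = 0.00791), and the oocyte-type element MTA_Mm was 2.02-fold higher in ESCs (log2 fold change 1.01 ± 0.22, FDR = 0.000143). MT2_Mm had a larger fitted change than all other called types except MLT1H2 (log2 fold change 4.94 ± 0.50, FDR = 7.56e-11), but its ESC groups stood far apart, as described below. Of the MLT1 types, only MLT1H2 and MLT1K were called, and MLT1H2 had between 0 and 1 reads in each MKOS and OKMS MEF library, so that its fitted change is not given here or in later comparisons.

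In cells that had entered reprogramming but remained Nanog-GFP-negative, a minority of the ERVL and MaLR types, both LTRs and internal parts, had risen. From MKOS MEFs to MKOS 2NG- cells, 13 of 95 types were higher and 1 was lower, where 25.1% of all features were called and 13.4% were higher. From OKMS MEFs, 8 types were higher and 1 was lower in E-CAD+ 2NG- cells (27.2% of all features called, 14.2% higher), and 7 types were higher in E-CAD- 2NG- cells (20.2% and 10.6%), in comparisons that share the OKMS MEF libraries. The share of called types, 14.7%, 9.47%, and 7.37%, was thus below that of all features in each comparison, and the median change of the 95 types was -0.14, -0.24, and 0.23, against -0.22, 0, and 0.25 for the 1019 other repeat types. These counts depended on single MEF libraries, with 6 types called in MKOS cells without replicate 1 of the MKOS MEFs, 4 in OKMS E-CAD+ cells without replicate 1 of the OKMS MEFs, and 3 and 4 in OKMS E-CAD- cells without replicates 1 and 2 of the OKMS MEFs. In OKMS E-CAD- cells 3 types were called without their replicate 1 and when scaled by the reads on repeats, and in OKMS E-CAD+ cells 75% of the calls were higher with DESeq2 size factors, compared with 88.9%.

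ORR1A0 was at 3.69 and 13.3 CPM in MKOS MEFs and at 194, 199.7, and 155 in the 3 libraries of MKOS 2NG- cells (log2 fold change 4.44 ± 0.45, FDR = 6.47e-10). In OKMS MEFs it was at 4.64 and 10.5, in OKMS E-CAD+ 2NG- cells at 29.1, 22.9, and 18.9 (log2 fold change 1.70 ± 0.40, FDR = 0.0012), and in OKMS E-CAD- 2NG- cells at 27.5, 49.1, and 37.0 (log2 fold change 2.24 ± 0.41, FDR = 6.8e-05). ORR1A0 was thus higher than in MEFs with both cassettes, and all MKOS libraries were above all OKMS libraries. Without replicate 1 of the OKMS MEFs, the change of ORR1A0 in OKMS E-CAD+ cells was 1.32 and was not called (FDR = 0.0546).

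MT2C_Mm, an older ERVL LTR, was at 7.37 and 6.42 CPM in MKOS MEFs and at 76.4, 76.6, and 159 in MKOS 2NG- cells (log2 fold change 3.80 ± 0.50, FDR = 1.61e-07). It was at 7.05 and 5.73 in OKMS MEFs and at 15.2, 5.16, and 21.0 in OKMS E-CAD+ 2NG- cells (log2 fold change 1.27 ± 0.46, FDR = 0.0368), whereas in OKMS E-CAD- 2NG- cells it stayed at 5.12, 5.49, and 7.01 (log2 fold change -0.17 ± 0.48, FDR = 0.879). ORR1A1 and ORR1A2 rose in all 3 comparisons, by 3.63 ± 0.40 and 2.70 ± 0.29 in MKOS, 1.03 ± 0.36 and 0.89 ± 0.27 in OKMS E-CAD+, and 1.28 ± 0.37 and 0.78 ± 0.27 in OKMS E-CAD- cells. In OKMS cells ORR1A1 and ORR1A2 were called in neither comparison when either one of the OKMS MEF libraries was left out. MT2C_Mm in OKMS E-CAD+ cells was not called without 4 of the 5 libraries in turn and was at 0.77 without replicate 3 of these cells (FDR = 0.259). With a replicate block, neither MT2C_Mm in OKMS E-CAD+ cells nor ORR1A2 in OKMS E-CAD- cells was called.

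The change from MEFs to E-CAD+ 2NG- cells differed between the cassettes for 4 types, each with the larger rise in MKOS cells, where 1.31% of all features were called. They were ORR1A1 (difference of log2 fold changes, MKOS minus OKMS, 2.60 ± 0.51, FDR = 0.00283), ORR1A0 (2.74 ± 0.55, FDR = 0.0038), ORR1A2 (1.81 ± 0.38, FDR = 0.00563), and MT2C_Mm (2.53 ± 0.64, FDR = 0.0291). None of the 4 was called without replicate 1 of the MKOS MEFs, where the differences were between 1.63 and 2.73 (FDR = 0.0581 to 0.0968), and 2 were called without replicate 2 of the OKMS MEFs.

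MTA_Mm-int and ORR1A4 also rose in MKOS cells and in OKMS cells of both E-CAD gates. MTA_Mm-int, the internal part of an element active in oocytes, was at 133 and 131 CPM in OKMS MEFs, at 486, 531, and 423 in E-CAD- 2NG- cells, and at 365, 379.7, and 398 in E-CAD+ 2NG- cells, and at 96.4 and 127 in MKOS MEFs and 205, 176, and 201 in MKOS 2NG- cells. It rose in all 3 comparisons, with log2 fold changes of 1.80 ± 0.24, 1.59 ± 0.24, and 0.72 ± 0.23. The LTR MTA_Mm did not follow its internal part, with 37.1 and 44.9 CPM in OKMS MEFs and 40.2, 57.0, and 38.3 in OKMS E-CAD- 2NG- cells (log2 fold change 0.07 ± 0.28, FDR = 0.929). ORR1A4 was at 131, 237, and 194 CPM in OKMS E-CAD- 2NG- cells, 103, 112, and 98.2 in OKMS E-CAD+ 2NG- cells, and 88.2, 79.6, and 119 in MKOS 2NG- cells, all above every MEF library (log2 fold changes 2.54 ± 0.32, 1.83 ± 0.31, and 1.70 ± 0.30).

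The cassettes were then compared within each E-CAD+ gate. In 2NG- cells, 12 types were higher and 1 was lower in MKOS than in OKMS cells, 13.7% of the 95 types, where 4.88% of all features were called and 2.73% were higher. In 3NG- cells, 5 types were higher and 1 was lower (2.09% of all features called, 1.36% higher), and in 3NG+ cells 2 types were higher (0.65% and 0.307%). The median difference of the 95 types was 0.42, 0.08, and -0.06 in the 3 gates, against 0.18, -0.01, and -0.12 for the 1019 other repeat types. In 2NG- cells 7 and 8 types were called without replicates 1 and 2 of the OKMS cells and 8 when scaled by the reads on repeats, and in 3NG- cells 3 were called without replicate 3 of the OKMS cells. In 3NG+ cells only MT2C_Mm was called when any 1 of the 6 libraries was left out.

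MT2C_Mm was at 76.4, 76.6, and 159 CPM in MKOS 2NG- libraries and 15.2, 5.16, and 21.0 in OKMS E-CAD+ 2NG- libraries. In 3NG- cells it was at 117, 94.8, and 158 with MKOS and 19.8, 17.6, and 16.7 with OKMS, and in 3NG+ cells at 268, 504, and 345 with MKOS and 67.5, 108, and 46.9 with OKMS. The cassettes did not overlap in any gate, and the difference was 6.6-fold (log2 fold change 2.72 ± 0.39, FDR = 9.54e-06), 6.25-fold (log2 fold change 2.64 ± 0.39, FDR = 5.55e-05), and 4.65-fold (log2 fold change 2.22 ± 0.38, FDR = 0.00121).

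ORR1A2 was at 373, 427, and 425 CPM in MKOS and 92.5, 126, and 84.4 in OKMS E-CAD+ 2NG- libraries, and at 416, 438, and 452 in MKOS and 147, 122, and 147 in OKMS E-CAD+ 3NG- libraries. In 3NG+ libraries it was at 662, 753, and 785 with MKOS and 397, 416, and 474 with OKMS, and the difference was not called (log2 fold change 0.61 ± 0.24, FDR = 0.257). The difference was 1.93 ± 0.24 in 2NG- cells (FDR = 7.83e-07) and 1.53 ± 0.24 in 3NG- cells (FDR = 0.000144). ORR1A0 was higher in MKOS cells in all 3 gates (2.86 ± 0.34, 1.51 ± 0.32, and 1.28 ± 0.32), and ORR1A1 and MT2B1 in 2NG- cells (2.67 ± 0.32 and 1.84 ± 0.43) and 3NG- cells (1.37 ± 0.31 and 1.57 ± 0.42). The other types called higher in MKOS 2NG- cells were ORR1B1-int, MLT1H, ORR1B2, ORR1B1, ORR1A2-int, ORR1C2, and MERVL_2A-int, with differences from 0.87 ± 0.26 to 2.01 ± 0.54. Without replicate 3 of the MKOS 2NG- cells, the highest of its group, the difference in MT2B1 was 1.35 and was not called (FDR = 0.0814).

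MTA_Mm-int was the only type lower in MKOS cells, at 205, 176, and 201 CPM against 365, 379.7, and 398 in 2NG- libraries (log2 fold change -1.07 ± 0.20, FDR = 0.000784) and 193, 187, and 187 against 395, 369, and 307 in 3NG- libraries (log2 fold change -1.04 ± 0.20, FDR = 0.00216). In 3NG+ libraries the values overlapped, with 216, 290.2, and 204 for MKOS and 249, 402, and 321 for OKMS (log2 fold change -0.60 ± 0.20, FDR = 0.181). MT2_Mm differed by 1.68 ± 0.53, 1.56 ± 0.51, and 1.91 ± 0.50 in the 3 gates, which was not called (FDR = 0.0543, 0.111, and 0.055). MERVL-int did not pass the test in any gate (FDR = 0.692, 0.692, and 0.717).

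**Figure D2:**
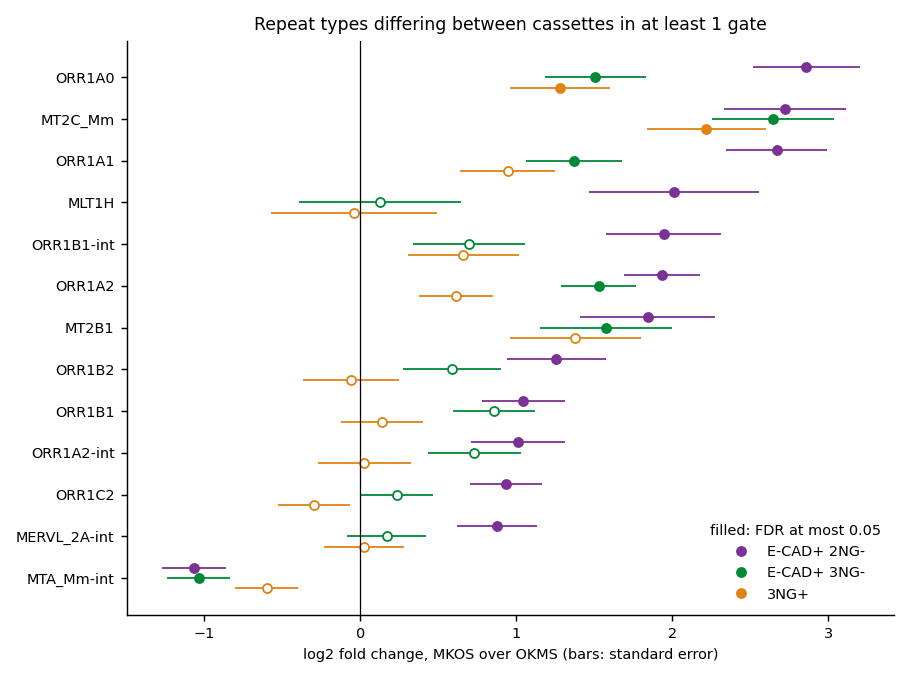
Log2 fold change of MKOS over OKMS cells (horizontal axis, bars are standard errors) of the 13 repeat types called in at least 1 of 3 gates, with filled points where the FDR was at most 0.05. All 13 types were called in E-CAD+ 2NG- cells, and MT2C_Mm and ORR1A0 are filled in all 3 gates.

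Markers of other cell types differed between the same populations. The 10 fibroblast markers, of which Col1a1, Col1a2, Col3a1, and Postn were called higher in MKOS 2NG- cells, summed to 862 CPM in MKOS and 306 in OKMS E-CAD+ 2NG- cells, and to 1116 and 501 in 3NG- cells. The libraries ranged from 603 to 1177 CPM in MKOS 2NG- and from 239 to 363 in OKMS E-CAD+ 2NG- cells. The marker with the highest mean was Fn1 in each of these groups. None of the 10 had a group mean of 0, although Prrx1 had no read in replicate 1 of the OKMS E-CAD+ 2NG- cells. In the OKMS E-CAD- 2NG- cells, where MT2C_Mm was near its MEF level, they summed to 920.1, above the MKOS 2NG- mean. Within MEFs, where ORR1A0, ORR1A1, and ORR1A2 had their lowest means, the sums were those given above. The 10 pluripotent markers, most of it from Dppa5a, summed to 2259, 2441, and 3453 CPM in MKOS 2NG- libraries and to 970.1, 778, and 3073 in OKMS E-CAD+ 2NG- libraries, so that the cassettes overlapped through replicate 3 of the OKMS cells. In 3NG- cells they summed to 7737, 8961, and 9887 with MKOS and 2270, 1570, and 5311 with OKMS, again with replicate 3 highest. The 5 trophoblast markers summed to 38.3, 41.3, and 76.2 CPM in OKMS E-CAD+ 2NG- libraries, where MTA_Mm-int was higher, and to 26.9, 14.5, and 7.99 in MKOS 2NG- libraries. In the OKMS E-CAD- 2NG- libraries, where MTA_Mm-int had its highest mean, they summed to 6.59, 2.40, and 37.3. Eomes had the highest mean of the 5 in OKMS E-CAD+ 2NG- cells through replicate 3. The primitive endoderm markers, led by Dab2, summed to 10.6, 9.35, and 48.5 CPM in OKMS E-CAD+ 2NG- and 18.5, 9.89, and 8.27 in MKOS 2NG- libraries, and to 26.9, 22.6, and 69.2 against 17.9, 15.6, and 9.48 in 3NG- libraries. The part of these markers in the differences between the cassettes was not tested.

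Within OKMS reprogramming, E-CAD+ and E-CAD- cells of the 2NG- and 3NG- gates were compared to address the mesenchymal-to-epithelial transition. Only 3 of the 95 types were called, where 6.87% of all features were. MT2C_Mm was higher in E-CAD+ cells, at 15.2, 5.16, and 21.0 CPM in 2NG- and 19.8, 17.6, and 16.7 in 3NG- libraries, compared with 5.12, 5.49, and 7.01 in E-CAD- 2NG- and 9.08, 4.88, and 5.72 in E-CAD- 3NG- libraries (log2 fold change 1.48 ± 0.30, FDR = 0.000785). ORR1E (-0.79 ± 0.19, FDR = 0.00572) and MTE2a (-0.94 ± 0.27, FDR = 0.0271) were lower in E-CAD+ cells. ORR1E was at 29.8, 21.9, and 34.9 CPM in E-CAD+ 2NG- and 62.8, 74.8, and 72.4 in E-CAD- 2NG- libraries, and at 45.5, 48.3, and 34.8 in E-CAD+ 3NG- and 55.7, 40.4, and 95.6 in E-CAD- 3NG- libraries. Cell markers moved with this comparison, with the pluripotent markers at 1607 and 3050.2 CPM in E-CAD+ 2NG- and 3NG- cells against 243 and 234 in E-CAD- cells and the fibroblast markers at 306 and 501 against 920.1 and 1135, and their part was not tested. MT2C_Mm alone was called without replicate 3 of the E-CAD- 3NG- cells, and 5 types without their replicate 1. The split of 1 higher and 2 lower types became 2 and 1 when scaled by the reads on repeats and 1 and 4 with DESeq2 size factors. From E-CAD+ 2NG- to 3NG- cells, over both cassettes, no type was called by edgeR or DESeq2 (0 of 95 by either) and 8 had an unadjusted p under 0.05 in edgeR, where 0.331% of all features were called.

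With the acquisition of Nanog-GFP, 13 of 28 ORR1 and 3 of 8 MT2 and MERVL types rose in OKMS cells, and 3 of 28 and 1 of 8 rose in MKOS cells. From 3NG- to 3NG+ cells, 4 types were higher and none was lower in MKOS cells (1.75% of all features called, 0.709% higher), and 16 were higher and none was lower in OKMS cells (6.57% and 3.54%). The 4 types of MKOS cells, MT2C_Mm, ORR1B1, ORR1A2, and ORR1B2, were all among the 16. The median change of the 95 types was 0.41 in MKOS and 0.54 in OKMS cells, against -0.02 and -0.01 for all features but 0.36 and 0.46 for the 1019 other repeat types tested, so that the shift of the median was close to that of other repeats. Of the other repeat types 3.24% were called in MKOS and 8.93% in OKMS cells, against 4.21% and 16.8% of the 95 types. The summed level of the ORR1 types without ORR1D2 was 1086 ± 39.2 CPM (SD, n = 3) in OKMS E-CAD+ 3NG- and 2129.5 ± 131 in OKMS 3NG+ cells. In MKOS cells no type was called without replicate 2 of the 3NG+ or of the 3NG- cells or when scaled by the reads on repeats, and 2 were called without replicate 3 of the 3NG+ or replicate 1 of the 3NG- cells. In OKMS cells 6 and 7 types were called without replicates 3 and 1 of the 3NG+ cells, 8 or 9 without any 1 of the E-CAD+ 3NG- libraries, and 5 when scaled by the reads on repeats. Cell markers moved with this step. The 10 pluripotent markers, led by Dppa5a, summed to 3050.2 ± 1989 CPM in OKMS E-CAD+ 3NG- and 15607 ± 922 in OKMS 3NG+ cells, and to 8862 ± 1079 and 12883 ± 826 in the MKOS populations (SD, n = 3). The 10 fibroblast markers, led by Fn1, summed to 501 ± 169.7 and 407 ± 76.0 with OKMS and to 1116 ± 359.7 and 601 ± 333 with MKOS. The trophoblast markers went from 57.3 to 10.4 CPM with OKMS and from 26.3 to 7.24 with MKOS, and the primitive endoderm markers from 39.6 to 8.06 and from 14.3 to 4.99. Their part in the change of the repeat types was not tested.

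ORR1B1 was at 78.3, 77.1, and 97.9 CPM in OKMS E-CAD+ 3NG- and 342, 296, and 235 in OKMS 3NG+ libraries (log2 fold change 1.99 ± 0.27, FDR = 5.23e-06), and at 159, 146, and 196 in MKOS 3NG- and 297, 428, and 343 in MKOS 3NG+ libraries (log2 fold change 1.27 ± 0.26, FDR = 0.00569). MT2C_Mm rose 4.61-fold in OKMS (log2 fold change 2.21 ± 0.39, FDR = 0.000261) and 3.43-fold in MKOS cells (log2 fold change 1.78 ± 0.37, FDR = 0.00553), to its highest mean of all 20 groups in MKOS 3NG+ cells, 372 ± 120.0 CPM. ORR1A2 (1.84 ± 0.24 and 0.92 ± 0.24) and ORR1B2 (1.87 ± 0.32 and 1.22 ± 0.31) rose with both cassettes. Of the types called in OKMS cells alone, ORR1C1 (1.53 ± 0.30), ORR1A4 (1.28 ± 0.26), and MT2B1 (1.35 ± 0.42) changed by 0.71 ± 0.28, 0.68 ± 0.25, and 1.15 ± 0.41 in MKOS cells, and the test of the difference between the cassettes called none of the 95 types (0 with DESeq2, 2 at an unadjusted p under 0.05, with 0.0236% of all features called). In 3NG+ cells MKOS and OKMS libraries were not called as different in ORR1B1 (log2 fold change 0.14 ± 0.26, FDR = 0.907) or ORR1B2 (log2 fold change -0.06 ± 0.31, FDR = 1).

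**Figure D3:**
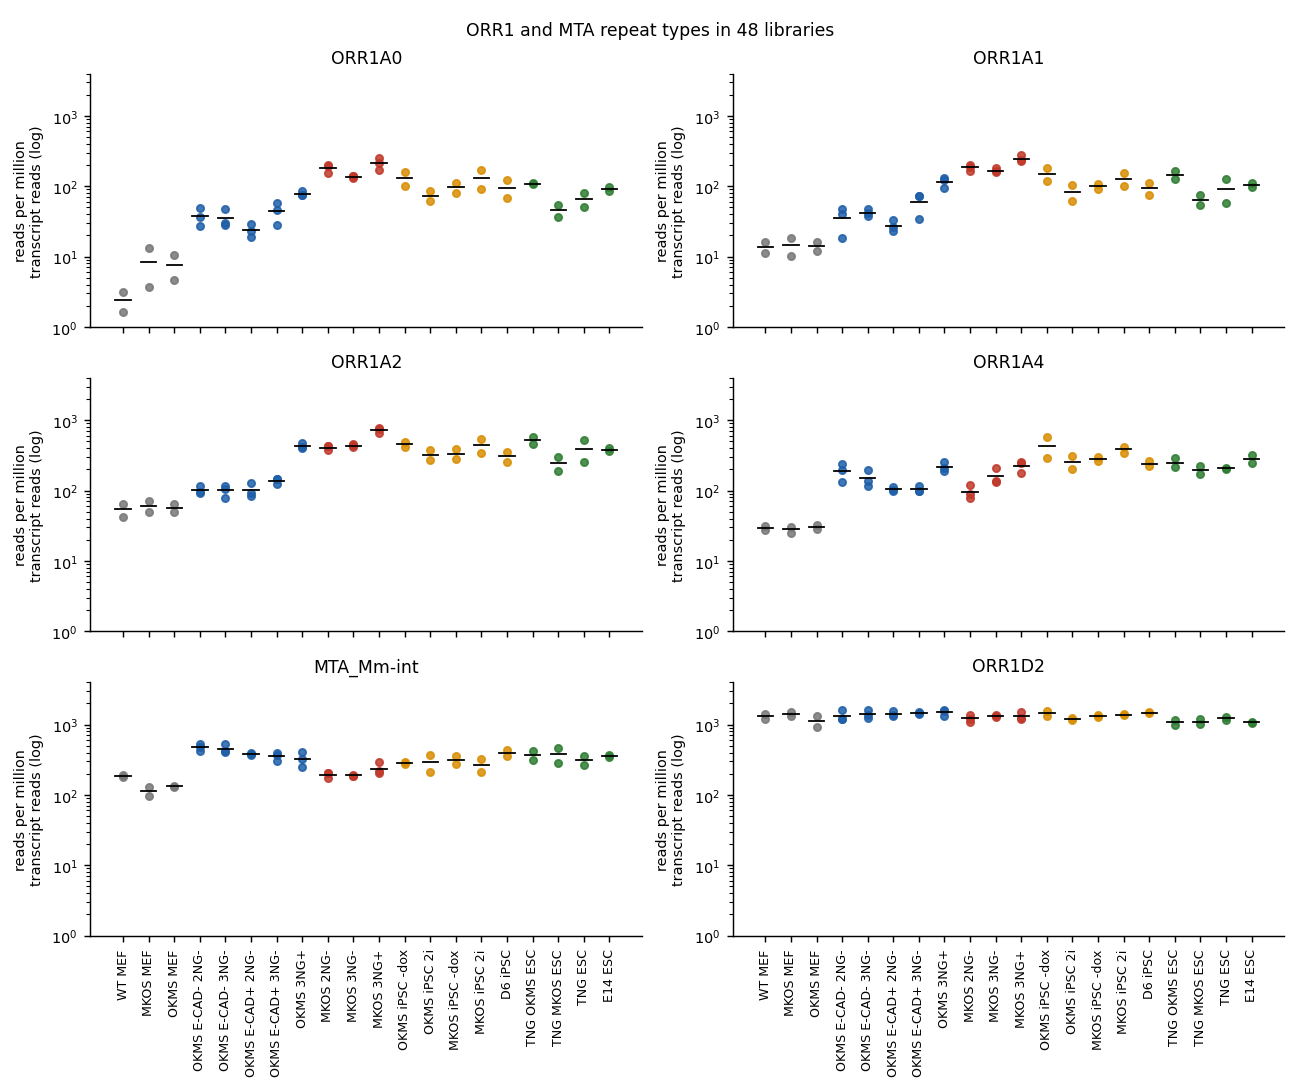
Level of 6 repeat types (CPM, log axis) in each of the 48 libraries, by group, with a short black line at the group mean. Gray points are MEFs, blue points sorted OKMS cells, red points sorted MKOS cells, orange points iPSCs, and green points ESCs. ORR1A0, ORR1A1, and ORR1A2 are lowest in MEFs and highest in MKOS 3NG+ cells, ORR1A4 is above its MEF levels in all sorted populations, MTA_Mm-int is high in OKMS 2NG- and 3NG- cells, and ORR1D2 is nearly level.

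From 3NG+ cells to iPSCs the MT2_Mm LTR and its internal part MERVL-int were higher with both cassettes. These comparisons use the 3NG+ libraries of the previous step again. Cell markers moved with this step too. The fibroblast markers summed to 407 CPM in OKMS 3NG+ cells and 141 in OKMS iPSCs without doxycycline, and to 601 and 211 with MKOS. The pluripotent markers summed to 15607 and 17416 with OKMS and to 12883 and 17826 with MKOS. Their part in the change of the repeat types was not tested. In MKOS cells, MT2_Mm and MERVL-int were higher and ORR1A2 and ORR1A1 were lower in iPSCs without doxycycline than in 3NG+ cells (1.98% of all features called). In OKMS cells, MT2_Mm, MT2B1, MERVL-int, MT2B2, and MT2B were higher and none was lower (0.638% of all features called, 0.325% higher). No ORR1, MT, or MLT1 type was called in OKMS cells. Without either one of the MKOS iPSC libraries 2 types were called in MKOS cells, and when scaled by the reads on repeats 2 were higher and 1 was lower. Without replicate 1 of the OKMS iPSCs, the library with the higher level, only MT2_Mm was called in OKMS cells, and without replicate 2 there were 9 calls.

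MT2_Mm was at 4.83 and 2.19 CPM in WT MEFs, 4.30 and 1.55 in MKOS MEFs, and 2.04 and 4.92 in OKMS MEFs. In OKMS cells it was at 5.50, 6.52, and 7.01 in E-CAD- 2NG-, 3.41, 2.90, and 7.41 in E-CAD+ 2NG-, 9.46, 5.48, and 8.95 in E-CAD+ 3NG-, and 25.0, 9.09, and 15.9 in 3NG+ libraries. In MKOS cells it was at 22.4, 18.2, and 11.5 in 2NG-, 29.9, 24.6, and 22.4 in 3NG-, and 78.0, 92.1, and 55.7 in 3NG+ libraries. The MKOS libraries were thus above the E-CAD+ OKMS libraries of the same gate, a difference that was not called in any gate. Those of MKOS 3NG+ cells were the highest of the sorted populations. In iPSCs without doxycycline it was at 563 and 1196 in MKOS libraries, 11.5-fold above MKOS 3NG+ cells (log2 fold change 3.53 ± 0.53, FDR = 4.59e-05), and at 2703 and 261 in OKMS libraries, 84.1-fold above OKMS 3NG+ cells (log2 fold change 6.39 ± 0.60, FDR = 3.92e-09). Both OKMS iPSC libraries stood apart by a wide margin, and the lower one was still above every sorted library. Against OKMS 3NG+ cells the lower library alone gave a log2 fold change of 3.80 (FDR = 1.3e-05).

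MERVL-int had a smaller range. It was at 6.42 and 6.76 CPM in WT MEFs, 8.20, 2.80, and 8.73 in OKMS 3NG+ cells, and 11.1, 10.1, and 12.7 in MKOS 3NG+ cells, and at 128 and 30.1 in OKMS and 52.8 and 91.7 in MKOS iPSCs without doxycycline. The rise was 11-fold in OKMS (log2 fold change 3.46 ± 0.51, FDR = 8.35e-05) and 6.25-fold in MKOS cells (log2 fold change 2.64 ± 0.49, FDR = 0.00112). It was not called without the higher library of each iPSC group, at 1.99 in OKMS (FDR = 0.239) and 2.16 in MKOS cells (FDR = 0.0581). MT2_Mm made up 2.56% of the reads on MT2 and MERVL types in WT MEFs, 8.38% in MKOS 3NG+ cells, 47.4% in MKOS iPSCs without doxycycline, and 50.8% in OKMS iPSCs without doxycycline. The share in OKMS iPSCs was taken over both libraries and rests mainly on replicate 1, whose MT2_Mm level was far above that of replicate 2. At the same step ORR1A2 fell from 662, 753, and 785 to 283 and 388 CPM in MKOS cells (log2 fold change -1.16 ± 0.27, FDR = 0.0131), and ORR1A1 from 236, 228, and 276 to 91.5 and 108 (log2 fold change -1.33 ± 0.35, FDR = 0.0309). MT2C_Mm was at 112 and 166 CPM in MKOS iPSCs, and its change from MKOS 3NG+ cells was not called (log2 fold change -1.46 ± 0.42, FDR = 0.0589). ORR1A2 and ORR1A1 were not called without replicate 1 of the MKOS iPSCs (-0.93 and -1.20, FDR = 0.318 and 0.331), nor was ORR1A1 without replicate 2 (-1.48, FDR = 0.137) or without 2 of the 3NG+ libraries in turn.

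**Figure D4:**
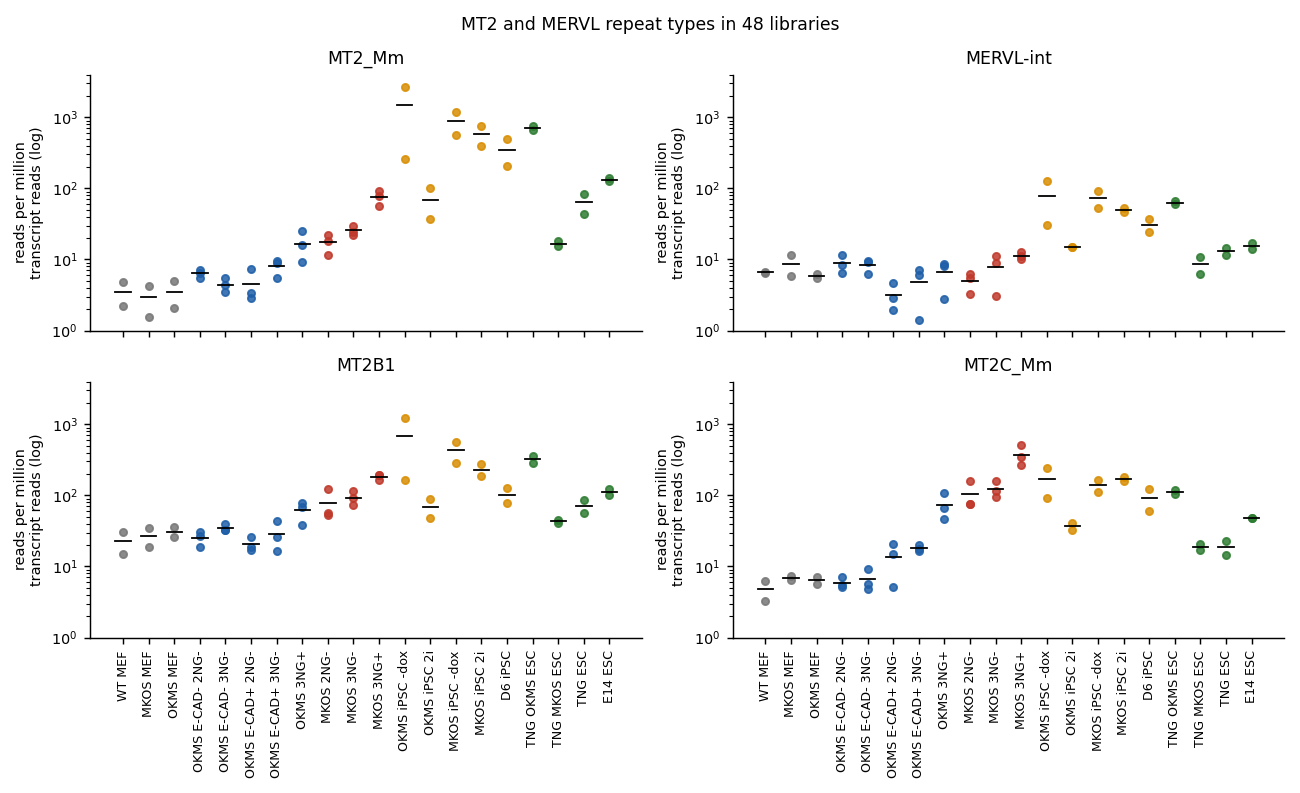
Level of MT2_Mm, MERVL-int, MT2B1, and MT2C_Mm (CPM, log axis) in each of the 48 libraries, by group, with a short black line at the group mean and colors for MEFs (gray), sorted OKMS cells (blue), sorted MKOS cells (red), iPSCs (orange), and ESCs (green). MT2_Mm and MERVL-int are highest in iPSCs without doxycycline, MKOS iPSCs in 2i, and TNG OKMS ESCs, whereas MT2C_Mm is highest in MKOS 3NG+ cells.

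The transcripts whose group means were most like MT2_Mm and MERVL-int were genes of 2-cell-like cells. Over the 20 groups, log2(CPM + 1) of MERVL-int had a Pearson r of 0.963 with Gm8300, 0.952 with Zscan4c, 0.949 with Zscan4f, 0.941 with Zscan4d, and 0.940 with Gm2022. These were the 5 highest of 9604 transcripts with a mean of at least 5 CPM over all libraries. For MT2_Mm they were Gm5662 (0.973), Gm8300 (0.963), Zscan4d (0.933), Gm2022 (0.931), and Zscan4c (0.929). The points share libraries and their depth, and the values are descriptions without a test. Zscan4d, a marker of 2-cell-like cells, had no read in any of the 6 MEF libraries or the 9 sorted MKOS libraries, and in 1 of the 15 sorted OKMS libraries it was at 0.252 CPM. It was at 426 and 33.3 CPM in OKMS and 59.5 and 144 in MKOS iPSCs without doxycycline, in the same order as MT2_Mm in those libraries. MT2C_Mm had other transcripts nearest to it, led by Rhox5 (0.901) and Cndp2 (0.900), and its closest repeat types were MT2B2 (0.931), ORR1A2 (0.909), and ORR1A1 (0.905), against 0.786 with MT2_Mm and 0.584 with MERVL-int. ORR1A2 was most like the histone methyltransferase subunit gene Ash2l (0.964) and the imprinting factor gene Zfp57 (0.958).

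Since the reads of the STRT method come from 5′ ends, the promoters of the Zscan4 genes that followed MERVL-int are shown, as given by RefSeq for GRCm38.p6, each from 250 bases before to 50 bases after the annotated start. They lie at chr7:11005495-11005794 (+ strand), chr7:11166099-11166398 (- strand), and chr7:11397665-11397964 (+ strand), and the capitals mark the letters TATAAA, searched as written on the strand of the gene.
Zscan4c: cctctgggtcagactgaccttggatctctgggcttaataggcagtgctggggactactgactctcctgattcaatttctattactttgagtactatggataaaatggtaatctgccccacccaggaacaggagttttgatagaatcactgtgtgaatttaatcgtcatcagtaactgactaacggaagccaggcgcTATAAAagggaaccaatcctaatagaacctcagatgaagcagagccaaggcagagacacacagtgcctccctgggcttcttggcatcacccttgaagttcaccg
Zscan4d: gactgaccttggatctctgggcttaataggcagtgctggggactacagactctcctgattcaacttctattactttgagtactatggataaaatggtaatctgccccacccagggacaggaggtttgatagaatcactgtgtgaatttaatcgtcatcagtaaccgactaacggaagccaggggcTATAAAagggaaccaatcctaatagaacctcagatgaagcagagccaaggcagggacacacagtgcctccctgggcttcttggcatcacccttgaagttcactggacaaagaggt
Zscan4f: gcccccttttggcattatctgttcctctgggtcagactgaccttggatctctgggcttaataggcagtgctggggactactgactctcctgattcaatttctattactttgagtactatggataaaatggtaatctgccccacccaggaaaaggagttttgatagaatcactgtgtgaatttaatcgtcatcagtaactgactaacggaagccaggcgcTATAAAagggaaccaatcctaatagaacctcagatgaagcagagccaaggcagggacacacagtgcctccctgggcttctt
TATAAA occurred once in each, starting 54, 65, and 31 bases before the annotated start, and it occurred in 8.32% of the 32851 RefSeq promoters of this length on the strand of the gene and in 13.6% on either strand. A match is a description of the letters only. When the windows were placed so that the motif coincided, Zscan4c was identical to Zscan4d at 97.2% of 289 and to Zscan4f at 99.3% of 277 shared positions, so that reads of these copies may be split among them and their levels are uncertain as single genes. No consensus sequence of the repeat types was used here.

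**Figure D5:**
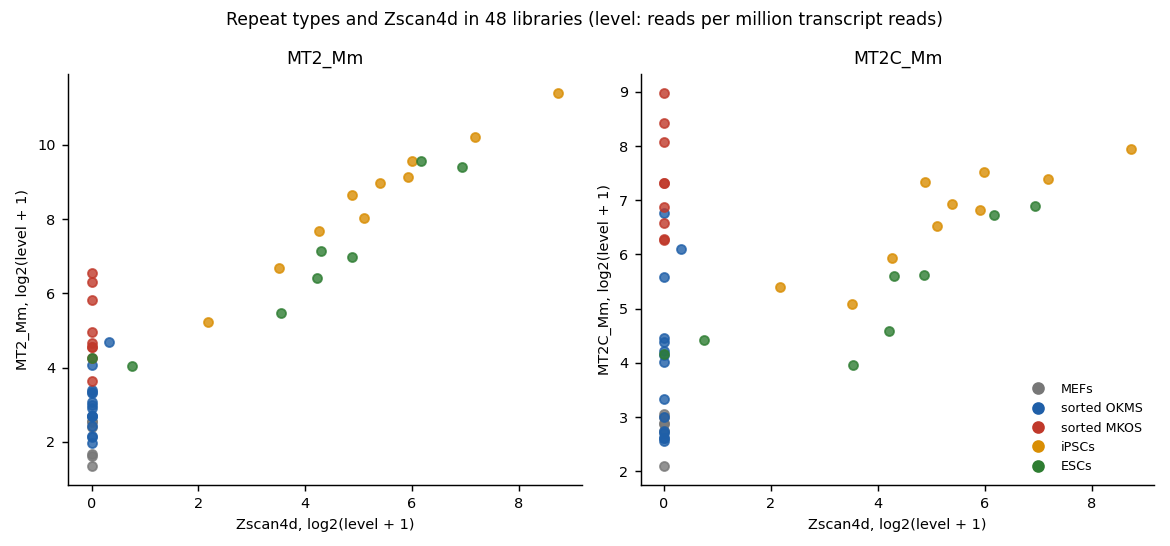
Level of MT2_Mm (left) and MT2C_Mm (right) against Zscan4d in each of the 48 libraries, all as log2(CPM + 1), with colors for MEFs (gray), sorted OKMS cells (blue), sorted MKOS cells (red), iPSCs (orange), and ESCs (green). Libraries with Zscan4d reads lie along a rising line for MT2_Mm, whereas the MKOS 3NG+ libraries have the highest MT2C_Mm levels with Zscan4d at 0.

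MT2B1, MT2B, and MT2B2, older ERVL LTRs, were each called at several steps. MT2B1 was at 18.6 and 34.3 CPM in MKOS MEFs, 57.4, 52.4, and 122 in MKOS 2NG- cells, 164, 192, and 197 in MKOS 3NG+ cells, and 289.8 and 572 in MKOS iPSCs without doxycycline. With OKMS it was at 25.6 and 36.4 in MEFs, 18.6, 25.8, and 17.1 in E-CAD+ 2NG- cells, 68.6, 38.5, and 78.7 in 3NG+ cells, and 1216 and 162 in iPSCs without doxycycline. It thus rose from MEFs to 2NG- cells with MKOS (1.49 ± 0.49, FDR = 0.0209), while its change with OKMS was -0.55 ± 0.47 (FDR = 0.405) and the difference between the cassettes was not called (FDR = 0.127), and it rose from 3NG+ cells to iPSCs with OKMS (log2 fold change 3.45 ± 0.47, FDR = 2.02e-05). The rise to 2NG- cells was not called without replicate 3 of the MKOS 2NG- cells (1.00, FDR = 0.155) or replicate 1 of the MKOS MEFs (1.15, FDR = 0.221), and the rise to OKMS iPSCs was 1.28 without their replicate 1 (FDR = 0.43). Over the 20 groups MT2B1 had a Pearson r of 0.945 with MT2_Mm and 0.854 with MT2C_Mm, and MT2B2 had 0.897 with MT2_Mm and 0.931 with MT2C_Mm. MT2A, the only one of the 8 types that was never called, had group means from 14.5 CPM in OKMS E-CAD+ 2NG- cells to 45.3 in MKOS iPSCs in 2i.

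iPSCs in 2i were compared with iPSCs without doxycycline to follow the same types after reprogramming. Over both cassettes, 5 types were lower in 2i, all of them MT2 or MERVL types, and none was higher, where 4.02% of all features were called and 2.23% were lower. They were MT2_Mm (log2 fold change -2.65 ± 0.42, FDR = 7.47e-05), MT2B1 (-2.24 ± 0.37), MERVL-int (-1.58 ± 0.38), MT2B (-0.95 ± 0.27), and MT2C_Mm (-1.05 ± 0.32, FDR = 0.0494). Without replicate 1 of the OKMS iPSCs without doxycycline, MT2_Mm and MT2B1 were called, with -1.35 (FDR = 0.0224) and -1.15 (FDR = 0.029). The number of calls was 2 without replicate 2 of the MKOS iPSCs without doxycycline or replicate 1 of the OKMS iPSCs in 2i, and 3 without replicate 2 of either iPSC group in 2i. When the cassettes were taken apart, which was done after the values had been seen, MT2_Mm in OKMS iPSCs was at 2703 and 261 CPM without doxycycline and 102 and 36.5 in 2i (log2 fold change -4.62 ± 0.65, FDR = 5.64e-05), and 6 types were lower (0.543% of all features called, 0.396% lower). None of the 6 was called when these 4 libraries were fitted alone or without replicate 1 of the OKMS iPSCs without doxycycline, where MT2_Mm had -2.02 (FDR = 0.13), and 2 were called without either library in 2i. In MKOS iPSCs MT2_Mm was at 563 and 1196 CPM without doxycycline and 753 and 399 in 2i, with overlapping libraries (log2 fold change -0.68 ± 0.56, FDR = 0.671), and no type was called (0 with DESeq2, 3 at an unadjusted p under 0.05, 1.84% of all features). The difference between the cassettes was not called for any type (1 with DESeq2, 15 at an unadjusted p under 0.05, 0.00591% of all features), with 3.94 ± 0.83 for MT2_Mm (FDR = 0.0945). It was called for 6 types without replicate 2 of the OKMS iPSCs without doxycycline and for 1 without replicate 1 of the OKMS or replicate 2 of the MKOS iPSCs in 2i.

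ESC lines differed among themselves in the same types. The contrast of TNG MKOS and TNG OKMS ESCs with both iPSC groups gave 7 lower types and none higher (1.45% of all features called, 1.19% lower), with -3.56 ± 0.44 for MT2_Mm, and 3 calls with -2.26 for MT2_Mm without replicate 1 of the OKMS iPSCs. The ESC lines did not share this level, however. MT2_Mm was at 757 and 673 CPM in TNG OKMS ESCs and 15.4 and 18.2 in TNG MKOS ESCs, and at 83.8 and 43.5 in the TNG ESCs from which both were made. TNG OKMS ESCs were thus in the range of iPSCs without doxycycline and TNG MKOS ESCs in the range of sorted MKOS 2NG- cells. When both lines were compared, which was decided after the values had been seen, 4 types were higher in TNG OKMS ESCs and none was lower, where 0.0886% of all features were called, 15 in number. They were MT2_Mm (39.7-fold, log2 fold change 5.31 ± 0.68, FDR = 2.04e-05), MT2B1 (2.81 ± 0.53), MERVL-int (2.81 ± 0.57), and MT2C_Mm (2.47 ± 0.47). MT2_Mm alone was called without replicate 1 or 2 of the TNG MKOS ESCs or replicate 2 of the TNG OKMS ESCs. Zscan4d was at 71.2 and 121 CPM in TNG OKMS and 0.685 and 0 in TNG MKOS ESCs. Calcoco2, which was listed as a transcript near MT2 LTRs, was at 44.6 and 8.42 CPM in TNG OKMS ESCs and had no read in TNG MKOS ESCs. Between E14 and TNG ESCs no type was called by edgeR or DESeq2 (0 by either, 8 at an unadjusted p under 0.05, 0.0295% of all features), with MT2_Mm at 125 and 139 CPM in E14 ESCs (log2 fold change 0.99 ± 0.57, FDR = 0.849).

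In order of mean level, MT2_Mm was highest in OKMS iPSCs without doxycycline (1482 CPM) and MKOS iPSCs without doxycycline (879.6), followed by TNG OKMS ESCs (715), MKOS iPSCs in 2i (576), and D6 iPSCs (352), and then by E14 ESCs (132), MKOS 3NG+ cells (75.3), OKMS iPSCs in 2i (69.2), and TNG ESCs (63.7). Each of the first 4 groups overlapped with the next one in this order, all libraries of the first 5 groups were above those of E14 ESCs, and MKOS 3NG+ cells, OKMS iPSCs in 2i, and TNG ESCs overlapped with one another. The first place rests on replicate 1 of the OKMS iPSCs without doxycycline, at 2703 CPM, since the other library of this group, at 261, was below the mean of D6 iPSCs. All remaining groups had means between 2.93 and 25.6 CPM.

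The repeat type with the most reads changed little. ORR1D2 had 439269 reads, more than any other type, and its group means lay between 1077 and 1496 CPM, 1.39-fold apart, with no call in the 16 comparisons. MTC, the MT type with the most reads, was called in 2 comparisons and its means were 1.82-fold apart, while MTD and ORR1A3 were not called, with means 2.76-fold and 2.16-fold apart. ORR1D2, MTC, ORR1A3, and MTD had 26%, 6.38%, 4.28%, and 3.85% of the reads of the set, in this order. Other types with many reads did change. ORR1A2, MTA_Mm-int, and ORR1B1 had 6.06%, 5.91%, and 4.04% of the reads and were called in 9, 6, and 6 comparisons. The means of MT2_Mm were 507-fold apart, those of ORR1A0 87.7-fold, of MT2C_Mm 77.3-fold, of MT2B1 33.6-fold, of ORR1A1 18.1-fold, and of ORR1A2 13.6-fold. Single libraries set the ranges of MT2_Mm and MT2B1, which were 301-fold and 21.0-fold without replicate 1 and 924-fold and 59.3-fold without replicate 2 of the OKMS iPSCs without doxycycline, and that of MT2_Mm was 956-fold without replicate 1 of the MKOS MEFs. The MLT1 type with the most reads, MLT1A0, was never called, and its levels per library were 3.50 to 46.1 CPM with a median of 22.2.

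Genes with known roles at ERVL elements were read from a list of 25 repressors, all of which passed the filter. From MEFs to TNG ESCs, 18 of the 25 repressors rose and none fell, where 24.5% of all features were higher. From MKOS MEFs to MKOS 2NG- cells 11 rose and from OKMS MEFs to OKMS E-CAD+ 2NG- cells 13 rose (13.4% and 14.2% of all features). From OKMS MEFs to OKMS E-CAD- 2NG- cells 11 rose (10.6% of all features) and Rybp, a Polycomb-associated gene, fell (-1.08 ± 0.32, FDR = 0.0122), where 9.58% of all features were lower. Without replicate 2 of the MEFs of its own cassette, 7 repressors rose in each of the MKOS and OKMS E-CAD- populations, and Rybp was not called in the latter. From 3NG- to 3NG+ cells 3 rose in MKOS and 6 in OKMS cells (0.709% and 3.54% of all features), including Trim28, the corepressor of KRAB zinc finger proteins (0.85 ± 0.22 and 1.06 ± 0.22). In MKOS cells, none was called without replicate 2 of the 3NG- cells and 1 each without replicate 1 of the 3NG- cells or replicate 2 or 3 of the 3NG+ cells, and Trim28 was not called without any 1 of these 4 libraries. In OKMS cells, 3 were called without replicate 2 and 5 without replicate 1 of the E-CAD+ 3NG- cells, and Trim28 was called without any 1 of the 6 libraries. No repressor was called from 3NG+ cells to iPSCs with either cassette, in iPSCs in 2i against those without doxycycline, or between TNG OKMS and TNG MKOS ESCs. In the comparison of the cassettes in E-CAD+ 2NG- cells, Zfp42, a pluripotency marker reported to act on ERVL elements, was higher in MKOS (195, 203, and 406 against 21.1, 21.0, and 75.8 CPM, log2 fold change 2.60 ± 0.43, FDR = 0.000114) and Zmym2 was lower (log2 fold change -1.33 ± 0.36, FDR = 0.02), which was not called without any 1 of the MKOS libraries or replicate 1 of the OKMS cells. In 3NG- cells Zfp42 (2.24 ± 0.43) and Rybp (1.02 ± 0.29) were higher in MKOS cells, and Rybp was not called without any 1 of the MKOS libraries or without replicate 1 or 2 of the OKMS cells.

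Of 13 listed activators of the 2-cell program, 11 passed the filter, 6 of them Zscan4 genes. From 3NG+ cells to iPSCs without doxycycline, 5 of 11 were higher in MKOS and 4 in OKMS cells (0.756% and 0.325% of all features), and all of these were Zscan4 genes. Reads of such similar copies may be split among them, so the counts of Zscan4 genes, here and in 2i, are not counts of independent members. In OKMS cells 2 were called without replicate 1 of the iPSCs. In 2i, over both cassettes, 6 of 11 were lower than without doxycycline (2.23% of all features), namely 4 Zscan4 genes and Dppa2 and Dppa4, which encode upstream activators of Dux. Between 2 and 5 of them were called without 1 library at a time, and none of the 4 Zscan4 genes without replicate 1 of the OKMS iPSCs without doxycycline. By cassette, 3 Zscan4 genes were lower in OKMS iPSCs (0.396% of all features), but none without that library or without replicate 2 in 2i and 1 without replicate 1 in 2i. No activator was called in MKOS iPSCs. Zscan4d was at 426 and 33.3 CPM without doxycycline and 10.4 and 3.51 in 2i in OKMS iPSCs, and at 59.5 and 144 and then 62.7 and 28.4 in MKOS iPSCs, where the libraries overlapped. The listed transcripts near MT2 LTRs or of 2-cell-like cells summed to 644 and 118 CPM without doxycycline and 50.2 and 89.9 in 2i in OKMS iPSCs, and to 159 and 207 without doxycycline and 384 and 377 in 2i in MKOS iPSCs. Calcoco2 alone made the higher sum in 2i in replicate 2 of the MKOS iPSCs, where it was at 297 CPM, and without it the other 20 transcripts summed to 147 and 203 CPM without doxycycline and 315 and 80.5 in 2i in MKOS iPSCs, with overlapping libraries, and to 641 and 63.6 and then 29.8 and 7.55 in OKMS iPSCs. Over both cassettes Calcoco2 was called higher in 2i (log2 fold change 2.56 ± 0.58, FDR = 0.00583), where 4.02% of all features were called. The listed transcripts AF067061 (-5.88 ± 1.30, FDR = 0.00972) and Gm5662 (-2.10 ± 0.61, FDR = 0.0378) were called lower. In MKOS iPSCs alone Calcoco2 was called higher in 2i as well (4.37 ± 0.88, FDR = 0.00407). Dppa4 was already at 182, 275, and 285 CPM in MKOS and 261, 230.1, and 187 in OKMS 3NG+ cells, against 273 and 287 in MKOS iPSCs and 235 and 306 in OKMS iPSCs without doxycycline. Dux, which activates MERVL, had few reads, with group means of at most 2.31 CPM, the mean in TNG OKMS ESCs, against 0 in TNG MKOS ESCs. It was at 2.27 CPM in OKMS iPSCs without doxycycline, with 22 and 0 reads in the 2 libraries, and at 1.41 in 2i. In MKOS iPSCs it was at 1.70 without doxycycline and 0.108 in 2i, and in MEFs and sorted populations at most at 0.351. Of 29 listed transcripts near MT2 LTRs or of 2-cell-like cells, 21 were in the table and 14 passed the filter, and 4 rose and 1 fell from 3NG+ cells to iPSCs in MKOS, where 0.756% of all features rose and 1.22% fell, and 4 rose and none fell in OKMS. None of the 4 was called in OKMS without replicate 1 of the iPSCs, and in MKOS only 1 rose without replicate 2 of the iPSCs or replicate 3 of the 3NG+ cells. Gm5662 was at 9.46, 7.90, and 3.80 CPM in MKOS 3NG+ cells and 73.2 and 100.1 in MKOS iPSCs without doxycycline (log2 fold change 3.63 ± 0.79, FDR = 0.00853). Calcoco2, the one that fell, was at 67.1, 65.8, and 92.3 CPM in MKOS 3NG+ cells and 12.5 and 4.61 in MKOS iPSCs (log2 fold change -3.14 ± 0.81, FDR = 0.0287).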

How the data were processed

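Reads on 24264 transcripts, 1554 repeat types, and 104 spike-in RNAs were counted in 48 STRT libraries. The authors deposited raw read counts, with multireads on transcripts assigned to the most 5′ exonic hit and repeats summed by type over sense and antisense. The processing notes name Bowtie 0.12.7 and mm10, whereas the study's methods name mm9. The count of uniquely mapped reads equaled the total for all 1554 repeat types, so that the share of multireads on them is not known. CPM was taken over reads on transcripts without further scaling. Tests used edgeR 4.0.16 (glmQLFit and glmQLFTest) in R 4.3.3 on transcripts and repeat types together, spike-ins left out, with 1 coefficient per group, library sizes of reads on transcripts with TMM factors of 0.855 to 1.23 from transcripts, filterByExpr by group, and Benjamini-Hochberg FDR of at most 0.05. Alternatives were DESeq2 1.42.0, its size factors in edgeR, scaling by the reads on repeats, no filter, the compared libraries alone, a set of 41 libraries, a replicate block, and each library left out in turn.

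The repeat types, lists, and comparisons were chosen with earlier results of these data known. Types named were at most 10 per comparison with the largest changes among those called, MERVL-int, MT2_Mm, MTA_Mm, MTA_Mm-int, ORR1A0, the type with the most reads of each family, and the 5 called most often. A few others (ORR1A3, MTD, MT2A, MERVL_2A-int, ORR1D2) were added after their values were seen. Genes were named from lists of repressors, activators, MT2-linked transcripts, and cell markers, the genes of the sorting markers (added afterwards), and the 5 most like transcripts by Pearson r of log2(CPM + 1). In simulated data for the comparison of the cassettes in 2NG- cells, 200 of 14683 features were changed 4-fold, and edgeR called 84, of which 79 were changed ones. The depth of 1429717 to 14174725 transcript reads per library limits types with few reads, and limits from counts cover counting error only.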

Additional observations from a re-analysis of the deposited data

Results flagged for a closer look

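A difference between the cassettes stood out for 4 types. The rise from MEFs to E-CAD+ 2NG- cells was larger with MKOS than with OKMS, by the test of the difference itself, for ORR1A1 (difference of log2 fold changes 2.60 ± 0.51, FDR = 0.00283), ORR1A0 (2.74 ± 0.55, FDR = 0.0038), ORR1A2 (1.81 ± 0.38, FDR = 0.00563), and MT2C_Mm (2.53 ± 0.64, FDR = 0.0291). None of the 4 was called without replicate 1 of the MKOS MEFs, and 2 were called without replicate 2 of the OKMS MEFs.

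The D6 iPSC line, which enters no test between groups, had MT2_Mm at 205 and 499.6 CPM (mean 352), against 1.55 to 4.92 CPM in the MKOS and OKMS MEF libraries. This level was flagged only because it lay outside the tests between groups, and it was not particular to D6. The means of OKMS and MKOS iPSCs were 1482 and 879.6 CPM without doxycycline and 69.2 and 576 in 2i. MERVL-int was at 24.2 and 37.0 CPM in D6 iPSCs (mean 30.6) and at 5.50 to 11.5 in the MKOS and OKMS MEF libraries. In the same libraries MT2B1 was at 78.9 and 126 CPM, MT2C_Mm at 60.2 and 121, and Zscan4d at 18.1 and 41.2.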

How the results depend on the processing

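Of the fold changes of named called types, recomputed under each alternative and without each library in turn, none of 1501 changed sign, and 262 no longer passed the test, 181 of them among the 710 without 1 library. The cause of these losses was not tested, but leaving out a library leaves 1 or 2 in its group, and where 1 is left it is assumed to vary as the other groups do. The counts of called types below differed by more than 1.5-fold from those in the text.

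With 41 libraries, leaving out 7 sorted libraries that do not enter averages published by the authors, the calls numbered 3 (against 6) between cassettes in 3NG- cells, 1 (against 2) between cassettes in 3NG+ cells, 1 (against 3) between E-CAD gates, and 1 (against 0) for the cassette difference in the change to 2i. DESeq2 gave 5 (against 3) between E-CAD gates and 1 (against 0) for the cassette difference in the change to 2i. Fitting the compared libraries alone gave 5 (against 9) from MEFs to OKMS E-CAD+ 2NG- cells, 5 (against 2) between cassettes in 3NG+ cells, 11 (against 4) from 3NG- to 3NG+ in MKOS, 8 (against 16) from 3NG- to 3NG+ in OKMS, 3 (against 5) from 3NG+ to iPSCs in OKMS, 3 (against 5) in 2i over both cassettes, 4 (against 7) between TNG ESCs and iPSCs, 2 (against 0) between E14 and TNG ESCs, and 0 (against 6) in 2i in OKMS. Scaling by the reads on repeats gave 3 (against 7) from MEFs to OKMS E-CAD- 2NG- cells, 8 (against 13) between cassettes in 2NG- cells, 0 (against 4) from 3NG- to 3NG+ in MKOS, and 5 (against 16) from 3NG- to 3NG+ in OKMS. DESeq2 size factors in edgeR gave 5 (against 3) between E-CAD gates. Without the filter on low counts there were 5 (against 2) between cassettes in 3NG+ cells, 6 (against 3) between E-CAD gates, 8 (against 4) from 3NG- to 3NG+ in MKOS, 7 (against 4) from 3NG+ to iPSCs in MKOS, 9 (against 5) from 3NG+ to iPSCs in OKMS, 1 (against 0) between E14 and TNG ESCs, 8 (against 4) for the cassette difference in the change from MEFs, and 5 (against 0) for the cassette difference in the change to 2i. Without 1 library at a time they ranged from 6 to 12 from MEFs to MKOS 2NG- cells, 4 to 8 from MEFs to OKMS E-CAD+ 2NG- cells, 3 to 7 from MEFs to OKMS E-CAD- 2NG- cells, 7 to 11 between cassettes in 2NG- cells, 3 to 6 between cassettes in 3NG- cells, 1 in every case between cassettes in 3NG+ cells, 1 to 5 between E-CAD gates, 0 to 4 from 3NG- to 3NG+ in MKOS, 6 to 14 from 3NG- to 3NG+ in OKMS, 2 to 5 from 3NG+ to iPSCs in MKOS, 1 to 9 from 3NG+ to iPSCs in OKMS, 2 to 6 in 2i over both cassettes, 3 to 10 between TNG ESCs and iPSCs, 0 to 4 for the cassette difference in the change from MEFs, 1 to 3 between TNG OKMS and TNG MKOS ESCs, 0 to 9 in 2i in OKMS, and 0 to 6 for the cassette difference in the change to 2i. A replicate block for the library numbers gave 5 (against 3) between E-CAD gates, and 5 of 113 named calls were lost, MLT1F2 from MEFs to MKOS 2NG- cells (FDR = 0.0979), MT2C_Mm (FDR = 0.0984) and MTC (FDR = 0.072) from MEFs to OKMS E-CAD+ 2NG- cells, and ORR1E (FDR = 0.11) and ORR1A2 (FDR = 0.0974) from MEFs to OKMS E-CAD- 2NG- cells. Deviations from the group means were correlated between same-numbered libraries of different sorted populations, with a mean of 0.145 over 84 pairs. Of these pairs 53 were over 0.1 and the lowest was -0.0891, against a mean of -0.0717 for different numbers. Of 24 libraries, 19 correlated best with their own number. Same-numbered sorted libraries thus shared part of their spread, for which the main tests had no term. Depth limits the MLT1 types most, with 18 of 58 below the filter.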

Other observations

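OKMS cells that were ICAM1-high without E-CAD entered only the comparison of the E-CAD gates, and their levels of MTA_Mm-int, ORR1A4, ORR1A0, and ORR1A2 overlapped with those of E-CAD- 2NG- cells. In E-CAD- 3NG- libraries MTA_Mm-int was at 416, 531, and 410.0 CPM, ORR1A4 at 114, 136, and 197, ORR1A0 at 30.1, 28.2, and 47.9, ORR1A2 at 78.3, 117, and 105, and MT2_Mm at 5.45, 3.49, and 4.36. WT MEFs, with ORR1A2 at 65.3 and 42.4 and ORR1A4 at 31.7 and 27.4 CPM, had MTA_Mm-int at 179 and 193, above the 96.4 to 133 CPM of the MKOS and OKMS MEF libraries, a difference that was not tested.

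In MKOS iPSCs in 2i, where the MT2_Mm libraries overlapped with those of iPSCs without doxycycline, MT2C_Mm was at 183 and 161 CPM against 112 and 166 without doxycycline, and ORR1A2 was at 344 and 546 against 283 and 388. In OKMS iPSCs MT2C_Mm was at 32.8 and 41.3 CPM in 2i and 247 and 91.2 without doxycycline, and ORR1A2 was at 379 and 268 in 2i and 421 and 493 without doxycycline. The MTA_Mm LTR was at 64.9 and 76.1 CPM in MKOS and 55.0 and 55.7 in OKMS iPSCs in 2i.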
